A study of Mus musculus with 22 samples.

Results

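The change that loss of the kinase MK2 made to the transcriptional response of macrophages to lipopolysaccharide (LPS) was measured as a difference of differences. The response of a genotype was its mean log2 level with LPS minus its mean log2 level in medium, and the MK2 change was the response of MK2-/- cells minus the response of wild-type (wt) cells. It used the 15 arrays of these genotypes, out of 22 arrays in all. They were 3 arrays of wt cells with LPS, 4 of wt cells in medium, 4 of MK2-/- cells with LPS and 4 of MK2-/- cells in medium. The cells were bone marrow-derived macrophages (BMDM) from femurs of C57BL/6 mice labelled male. The wt mice were aged 12 or 13 weeks and the MK2-/- mice 10 to 13 weeks. Cells were grown with 10 ng/ml of the macrophage growth factor M-CSF for 9 days and then kept for 360 min with 100 ng/ml LPS or with medium alone. LPS is a membrane component of Gram-negative bacteria, and all groups had been through the same M-CSF culture. MK2-/- mice lack MK2 in all their cells from birth, so cells differentiated without it. The other 7 arrays were of cells lacking both MK2 and MK3 (MK2/3-/-), from mice aged 11 to 14 weeks. They entered only the estimate of the spread between arrays and the sorting of genes into classes of response.

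LPS is sensed by Toll-like receptor 4, which activates NF-κB and the mitogen-activated protein kinases, p38 among them. MK2 is phosphorylated by p38 and in turn phosphorylates tristetraprolin (TTP, encoded by Zfp36), an RNA-binding protein that sends messenger RNAs with AU-rich elements to decay. Many cytokine, chemokine and feedback transcripts carry such elements, and the p38 and MK2 branch is known for controlling their stability and translation in macrophages, beside the interferon-β loop that induces antiviral genes.

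Each genotype lay on a slide of its own, scanned once, so that genotype and slide cannot be told apart in a direct comparison at one treatment. A slide effect that adds the same amount to both treatments drops out of the MK2 change. One that widens or narrows the range of the signal does not, and it cannot be told apart from genotype here. Between 61.7% and 83.0% of spots were well above background on the 15 arrays, and the median spread of a gene between arrays of a group was 0.29 to 0.35 (SD, log2). On MK2-/- LPS replicate 3 and MK2-/- medium replicate 3 none of the 4 Y-linked transcripts measured was above background and Xist was at 7.66 and 7.78, against the label male, and 2927 spots of the former were flagged against 154 to 187 on the other arrays of its group. The macrophage markers were well above background in every group, on all arrays for at least 7 of the 8 tested. In wt medium replicate 4 the mean log2 level of the pro-inflammatory cytokines was 8.49, against 6.62 to 7.19 on the other wt medium arrays, and the medians of the inflammatory lists are therefore also given without this array, with single genes where it moved them most. Arrays of LPS and medium that share a letter in the study's array names had the same age label in 7 of 7 pairs, and both arrays lacking Y-linked signal share a letter, while wt medium replicate 2 has no LPS partner. What the letter stands for is not stated in the sources used here.

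The transcript of the deleted kinase, Mapkapk2, was measured at log2 levels of 15.06, 14.28 and 15.33 in wt cells with LPS and at 12.07, 12.38, 10.77 and 12.39 in wt cells in medium. In MK2-/- cells it was at 11.71, 11.52, 11.25 and 11.95 with LPS and at 8.95, 9.01, 8.70 and 8.86 in medium. At each treatment every MK2-/- array lay below every wt array, by 3.02 on average in medium and by 3.28 with LPS. The remaining signal was well above background and rose with LPS by 2.73 in MK2-/- cells and by 2.99 in wt cells. Where the probe lies relative to the deleted part of the gene is not known here. Mapkapk3, which encodes the related kinase MK3, had an MK2 change of 0.47 ± 0.33 (SE).

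LPS altered the levels of 9426 of 22347 genes in wt BMDM (42.2% of those tested) and of 9992 genes in MK2-/- BMDM (44.7%) at an adjusted p below 0.05 in limma. Both genotypes shared 7772 of these genes, with 1 of them moving in opposite directions. Against this background no gene passed the same threshold for the MK2 change itself (0 of 22347, 0%), the smallest adjusted p being 0.0975. With the letter as a random block 4 genes passed, all at an adjusted p of 0.0483, namely Epop, Gpr31b, Cbx7 and BC021366, and the latter 2 had groups not above background. At an unadjusted p below 0.05 the MK2 change was positive for 550 genes (2.46%) and negative for 1134 (5.07%), and these shares serve as the background for all counts of list members below. Without wt medium replicate 4 the counts were 526 and 1054, and without the 2 arrays lacking Y-linked signal they were 686 and 1055. The median SE of the MK2 change was 0.44, and a change of the size of its own SE reaches neither threshold. Even the changes of Epop (2.11, SE 0.37) and Gpr31b (2.52, SE 0.44) stayed at an adjusted p of 0.0975 in limma without a block. Of 84 list members at an unadjusted p below 0.05, 25 stayed below it in each of the 15 fits without 1 array. Over all 22347 genes the median MK2 change was -0.08, with 9759 positive and 12588 negative. These are the background for counts of list members by sign alone.

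Genes with a strong LPS response had an MK2 change that leaned in the direction of that response. Genes were sorted by their response in MK2/3-/- cells. These arrays do not enter the MK2 change, but the cells lack MK2 as well, so that the sorting is not independent of the loss of MK2 and can favour genes whose response is larger without it. Of 1167 genes induced at least 4-fold there, 865 had a positive MK2 change, 143 of them at an unadjusted p below 0.05 against 34 negative ones, and their median was 0.36 (quartiles -0.02 and 0.82). Of 2232 genes repressed at least 4-fold, 1777 had a negative MK2 change, 433 at an unadjusted p below 0.05 against 20 positive ones, and their median was -0.52 (quartiles -0.93 and -0.11). The 14929 genes outside the classes of response had a median of -0.05. Lists of strongly induced or repressed genes are to be read beside these class counts as well as beside the shares over all genes. Induced genes thus had a median response of 2.75 in wt and 3.02 in MK2-/- cells, and repressed genes of -1.99 and -2.47. Within 1 treatment genotype and slide cannot be told apart, so the following differences are descriptions only. For the induced class the median genotype difference was -0.29 in medium and 0.05 with LPS, whereas for the repressed class it was -0.19 in medium and -0.71 with LPS. Over the 550 genes with a positive change at an unadjusted p below 0.05 it was -0.41 and 0.68, with the LPS part larger in 322. Over the 1134 negative ones it was 0.12 and -0.86, with the LPS part larger in 856. Scaling each array to its 75th percentile in place of quantile normalisation left the signs but gave medians of 0.19 and -0.29. Without wt medium replicate 4 the medians were 0.26 and -0.53. Sorting by the mean of the wt and MK2-/- responses, an alternative chosen after seeing the data that weights both genotypes equally but shares their arrays, gave medians of 0.37 over 1063 induced genes and -0.56 over 1539 repressed genes.

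**Figure D1:**
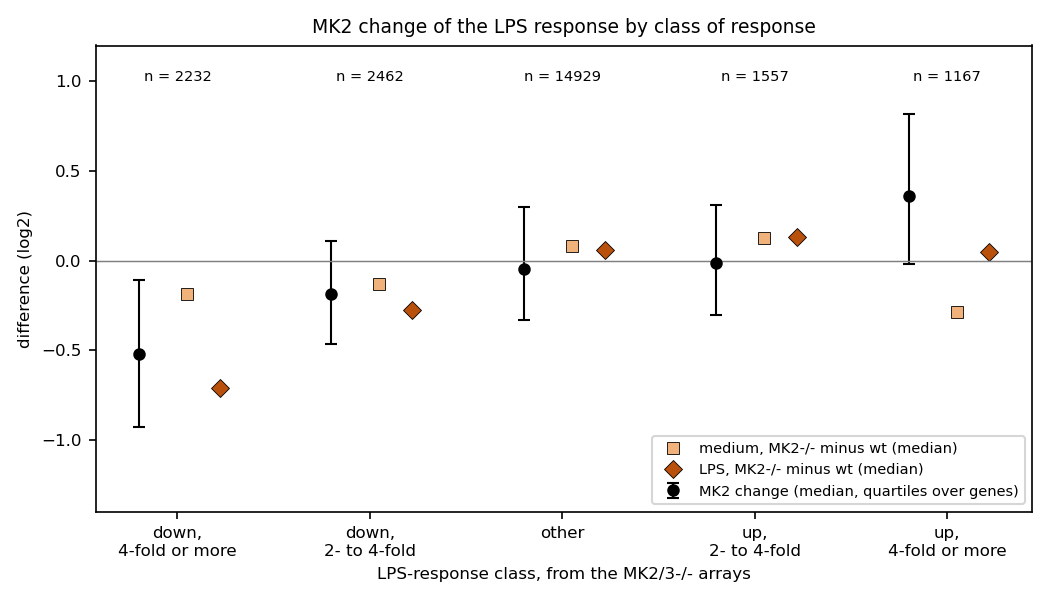
The MK2 change of the LPS response (black, median and quartiles over genes, log2) and the median MK2-/- minus wt difference in medium (light squares) and with LPS (dark diamonds) for 5 classes of LPS response defined on the MK2/3-/- arrays. The median change runs from -0.52 in the 2232 most repressed genes to 0.36 in the 1167 most induced ones. The median genotype difference, which cannot be told apart from slide, is larger in size in medium for the induced class and with LPS for the repressed class.

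Chemokines that attract neutrophils were among the induced genes with a larger response in MK2-/- cells. Cxcl1 was at 6.92, 6.50, 5.91 and 7.76 in wt cells in medium and at 14.29, 13.79 and 14.17 with LPS. In MK2-/- cells it was at 5.40, 4.63, 4.15 and 5.64 in medium and at 15.46, 14.32, 14.88 and 13.74 with LPS. The medium levels of the genotypes did not overlap, the LPS levels did, and the response was 7.31 in wt and 9.65 in MK2-/- cells. The MK2 change of Cxcl1 was 2.34 ± 0.71 (SE), with an adjusted p of 0.404 in limma. Cxcl2 behaved alike, with 7.74, 7.47, 6.92 and 8.73 in wt medium against 6.38, 5.53, 5.34 and 7.03 in MK2-/- medium, and with 14.42, 14.50 and 14.92 in wt LPS against 15.09, 14.31, 15.13 and 13.79 in MK2-/- LPS. Its medium groups overlapped in 1 MK2-/- array, and its MK2 change was 1.61 ± 0.60 (SE, adjusted p 0.533 in limma), and that of Cxcl3, a closely related chemokine, was 2.22 ± 1.03. Of the 7 CXC chemokines of this type these 3 had a positive change at an unadjusted p below 0.05, none a negative one, and the list median was 0.67. CC chemokines, which draw monocytes and T cells, had a median of 0.84, with 3 of 13 positive at that threshold and none negative. Ccl2, the main monocyte attractant, responded by 7.65 in wt and 9.30 in MK2-/- cells, and Ccl7 by 8.01 and 10.41. In the remaining of these 3, Ccl22, no MK2-/- medium array was well above background, and its response exceeded that of wt cells by at least 7.99-fold, or at least 4.45-fold without wt medium replicate 4. Such an at-least fold only sets the dim group to the floor of detection. It does not take in the spread between arrays or other processing. Over all alternative settings the change of Ccl22 was 1.98 to 4.48. Without wt medium replicate 4 the medians of the CXC and CC lists were 0.68 and 0.61, Cxcl1 had 2.01, Cxcl2 1.27, Ccl2 1.25 and Ccl7 2.03, and Cxcl3 (1.78) no longer passed the unadjusted threshold. Leaving out each of the 15 arrays in turn gave list medians of 0.49 to 0.98 and of 0.47 to 1.09, the lowest without MK2-/- medium replicate 1 and MK2-/- LPS replicate 2.

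The interferon-inducible ligands of the receptor CXCR3 leaned the same way, and most on a single array. Cxcl9 was at 6.25, 5.76, 8.05 and 11.15 in wt medium and at 4.64, 6.86, 4.98 and 4.76 in MK2-/- medium, so that the groups overlapped in 1 array. With LPS it reached 14.67, 15.43 and 14.86 in wt and 14.16, 15.29, 15.28 and 15.52 in MK2-/- cells. Its MK2 change of 2.56 ± 1.17 (SE) became 1.45 without wt medium replicate 4. The change of Cxcl10 was 1.79 with and 1.02 without that array.

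The pro-inflammatory cytokines had a list median of 1.05, with 19 of 21 members positive. Their mean level was 6.62 to 8.49 in wt medium and 6.05 to 6.51 in MK2-/- medium. With LPS it was 12.18, 12.20 and 12.59 in wt and 12.84, 12.70, 12.90 and 12.50 in MK2-/- cells, which overlapped only by MK2-/- replicate 4. Of the 21 members, 8 were positive and 1 was negative at an unadjusted p below 0.05. Il6, an acute-phase cytokine, had the largest value in the list. It was at 8.52, 6.41, 10.02 and 13.37 in wt medium and at 5.85, 5.63, 6.36 and 4.88 in MK2-/- medium. With LPS it reached 17.74, 17.52 and 17.81 in wt and 18.02, 17.83, 17.87 and 17.60 in MK2-/- cells. All MK2-/- medium arrays lay below all wt medium arrays, while the LPS arrays interleaved. The response was 8.11 in wt and 12.15 in MK2-/- cells, and the MK2 change was 4.04 ± 1.28 (SE, adjusted p 0.433 in limma), or 2.78 without wt medium replicate 4. Il1a, an alarmin of the interleukin-1 family, had a change of 3.51 and Edn1, the vasoconstrictor endothelin-1, of 3.13. Tnfsf15, a TNF-family ligand, stood apart from these in that its level differed with LPS, at 12.80, 12.33 and 12.82 in wt and at 14.74, 14.11, 13.09 and 13.73 in MK2-/- cells. These groups did not overlap, and its MK2 change was 1.94 ± 0.57 (SE, adjusted p 0.384 in limma), or 1.53 without wt medium replicate 4. The other positive members at that threshold were Hdc, the histamine-forming enzyme kept on this list (2.24), Il18 (1.05), Il23a and Csf2. Il23a was not well above background in MK2-/- medium, and its response exceeded the wt one by at least 4.93-fold, or 2.84-fold without wt LPS replicate 2. Csf2 was not well above background in either medium group, so that no size is given for it. Tnf, the prototype target of this pathway, had a change of 0.21 ± 0.64 with responses of 6.40 in wt and 6.62 in MK2-/- cells. Il27, which restrains T cell responses, was the member with a negative change, of -1.04. In the 15 fits without 1 array, Csf2 lost that threshold in 12, Il23a in 8, Il27 in 8, Il18 in 3 and Hdc in 2. Il12b was not tested here. Without wt medium replicate 4 the list median was 0.80, with 6 members positive at that threshold, and Il1a had 2.48 and Edn1 2.68.

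The core promoters of the genes with the values above were compared by sequence, and Cxcl1 and Il6 are shown because their NF-κB motifs lie close to the start site. The sequences are the 250 bases before the RefSeq transcription start, on the coding strand of build GRCm38.p6, with capitals for the NF-κB consensus (searched on both strands) and, in Il6, also for the AP-1 motif (TGANTCA, both strands), which does not overlap it. The Cxcl1 window is chr5:90890995-90891244 (plus strand) with overlapping NF-κB matches that begin at -71 and -70, and the Il6 window is chr5:30012864-30013113 (plus strand) with an NF-κB match at -44 and an AP-1 match at -249.
Cxcl1: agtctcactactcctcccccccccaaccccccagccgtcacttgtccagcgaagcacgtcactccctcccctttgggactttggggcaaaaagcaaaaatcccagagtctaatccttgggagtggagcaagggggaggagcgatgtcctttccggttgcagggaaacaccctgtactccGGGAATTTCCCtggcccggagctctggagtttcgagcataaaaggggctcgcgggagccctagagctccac
Il6: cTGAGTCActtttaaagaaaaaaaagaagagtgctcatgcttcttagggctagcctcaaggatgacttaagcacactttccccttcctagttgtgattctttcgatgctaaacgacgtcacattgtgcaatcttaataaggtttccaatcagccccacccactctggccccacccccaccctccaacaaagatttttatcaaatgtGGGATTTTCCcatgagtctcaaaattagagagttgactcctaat
The NF-κB consensus was found in 5 of 17 promoters of the pro-inflammatory cytokine list (29.4%) and in 3 of 6 of the CXC chemokine list (50%), against 7.25% of the 32851 promoters of this length that were searched. A match describes letters in the window and not a bound site.

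**Figure D2:**
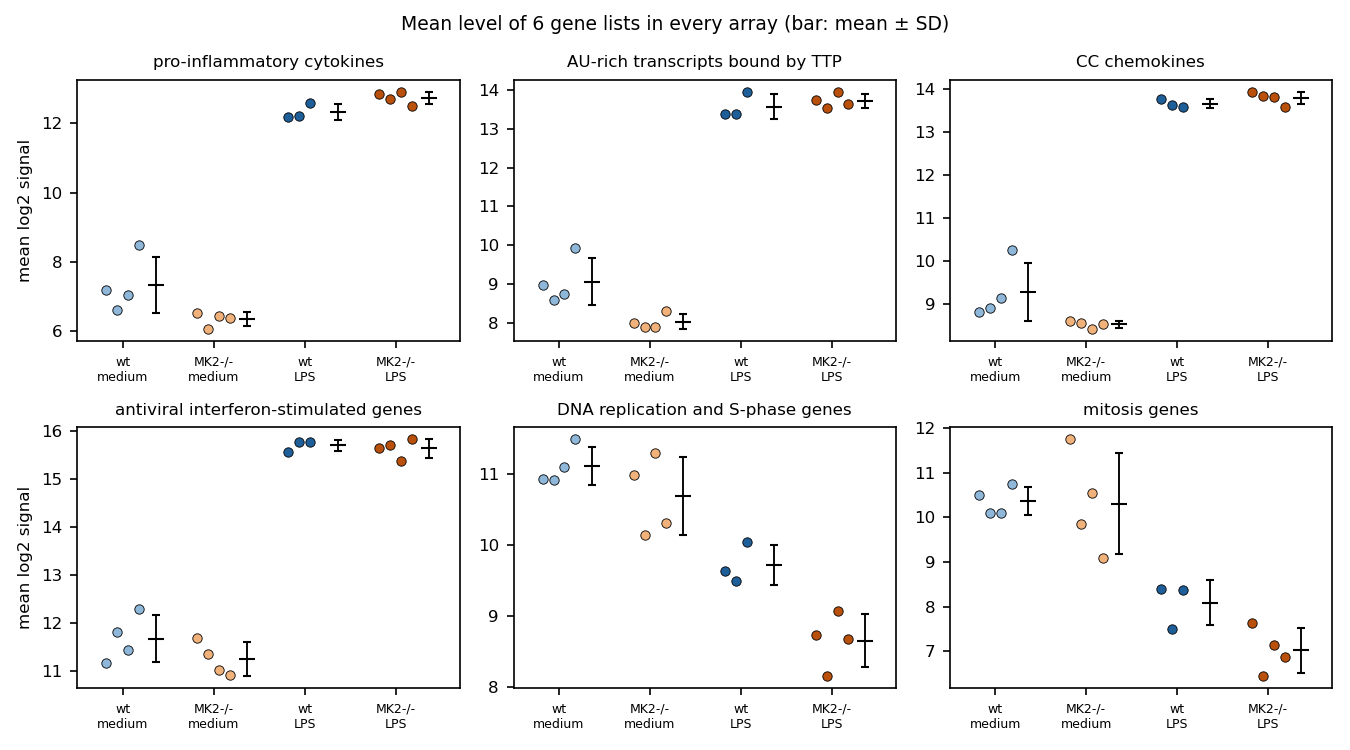
Mean log2 level of 6 gene lists on each of the 15 arrays, by genotype and treatment, with group mean ± SD. Cytokine and TTP-target levels lay lower in MK2-/- than in wt medium arrays. With LPS the TTP-target levels overlapped, and the cytokine levels lay higher in all MK2-/- arrays but replicate 4 than in wt arrays. With LPS the replication genes lay lower in all MK2-/- arrays than in wt arrays and the mitosis genes in all but replicate 1.

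Transcripts with AU-rich elements that TTP is known to bind overlap the lists above and had a median of 0.76, with 26 of 29 positive, 12 of them at an unadjusted p below 0.05 against 1 negative. Their mean log2 level was 8.96, 8.58, 8.73 and 9.93 on the wt medium arrays and 8.0, 7.89, 7.89 and 8.30 on the MK2-/- medium arrays. With LPS it was 13.40, 13.39 and 13.95 in wt and 13.75, 13.53, 13.96 and 13.66 in MK2-/- cells. The genotypes did not overlap in medium and overlapped with LPS, with median differences of -0.79 and 0.09. Ptgs2, which encodes cyclooxygenase-2, followed this pattern with 10.65, 7.20, 9.40 and 12.19 in wt medium against 6.53, 5.76, 7.02 and 7.65 in MK2-/- medium. LPS brought it to 17.03, 16.86 and 17.08 in wt and at 17.11, 16.98, 17.08 and 16.79 in MK2-/- cells. In medium the Ptgs2 groups overlapped, and its MK2 change was 3.12 ± 1.03 (SE, adjusted p 0.456 in limma), or 2.34 without wt medium replicate 4. Tnfaip3, the ubiquitin-editing NF-κB inhibitor A20, had a change of 1.11, or 0.64 without that array, and Ppp1r15a, the phosphatase subunit GADD34, of 0.77. The negative member was Plau, the plasminogen activator urokinase, with -1.98. Without wt medium replicate 4 the list median was 0.62, with 9 positive at that threshold.

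The regulators of AU-rich decay did not share this shift. Zfp36 itself, whose protein is the MK2 substrate, was at 12.15, 12.72 and 12.90 in wt and at 11.74, 12.09, 11.60 and 12.24 in MK2-/- cells with LPS. In medium it was at 8.87, 9.71, 9.37 and 9.44 in wt and at 8.86, 7.60, 8.82 and 9.27 in MK2-/- cells. The groups overlapped at both treatments, and the MK2 change of Zfp36 was 0.03 ± 0.48, with a sign that depended on the processing. The 16 RNA-binding proteins of this kind had a median of 0.11, with none positive and 2 negative at an unadjusted p below 0.05, namely Tial1 (-0.51) and Khsrp (-0.87, though 0.02 by its other probe). The 20 kinases and substrates of the p38 pathway had a median of -0.06, with 1 negative, the TAK1-binding protein Tab1 (-0.80), and none positive. Both medians changed sign under some alternative settings. The 12 dual-specificity phosphatases, which inactivate p38 and its relatives, had none past that threshold in either direction.

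**Figure D3:**
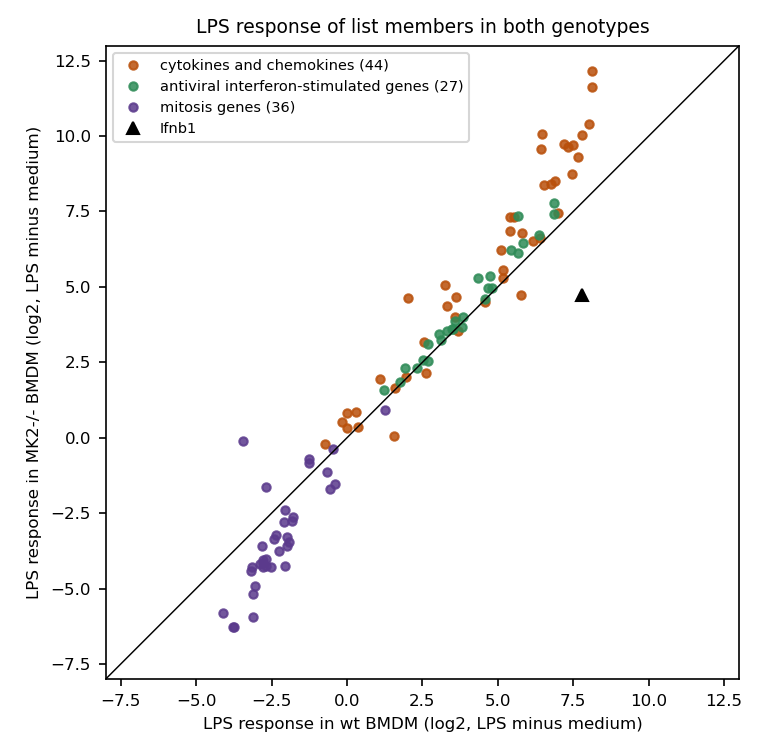
LPS response in MK2-/- BMDM against that in wt BMDM (both log2, LPS minus medium), 1 point per gene, for cytokines and chemokines, antiviral interferon-stimulated genes, mitosis genes and Ifnb1, with the line of equal response. Most cytokine and chemokine points lie above the line (list median change 1.05 for cytokines), most mitosis genes below it (-1.27), and Ifnb1 lies below it at 7.77 in wt and 4.74 in MK2-/- cells.

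Ifnb1, which encodes interferon-β, went against the other cytokines. It was at 10.79, 10.89 and 12.89 in wt cells with LPS and at 8.90, 7.41, 8.76 and 9.68 in MK2-/- cells with LPS. These groups did not overlap. In medium it lay between 2.04 and 4.64 in wt and between 2.92 and 4.91 in MK2-/- cells, where it was well above background on 2 of 4 and 1 of 4 arrays. Its response was 7.77 in wt and 4.74 in MK2-/- cells, and the MK2 change was -3.04 ± 1.01 (SE, adjusted p 0.456 in limma). The difference was larger without wt medium replicate 4, at -3.33. Its core promoter is shown for comparison with those of Cxcl1 and Il6, since it holds the same NF-κB consensus, here in capitals, beginning at -116, although its MK2 change had the opposite sign. The window is chr4:88522795-88523044 (minus strand, printed 5′ to 3′ along the gene, GRCm38.p6).
Ifnb1: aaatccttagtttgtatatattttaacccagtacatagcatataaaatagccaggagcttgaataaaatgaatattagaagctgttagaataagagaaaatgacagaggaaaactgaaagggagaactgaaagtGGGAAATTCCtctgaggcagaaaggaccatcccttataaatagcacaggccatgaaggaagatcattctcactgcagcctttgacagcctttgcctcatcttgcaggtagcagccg

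The genes that interferon-β induces did not follow Ifnb1. The 27 antiviral interferon-stimulated genes had a median of 0.30 and 25 of them were positive, though only Oasl1 passed an unadjusted p below 0.05. Their median response was 3.80 in wt and 3.85 in MK2-/- cells. Their mean level with LPS was 15.57, 15.76 and 15.77 in wt and 15.65, 15.70, 15.37 and 15.83 in MK2-/- cells, which overlapped. In medium it was 11.16, 11.82, 11.44 and 12.29 in wt and 11.70, 11.36, 11.02 and 10.92 in MK2-/- cells, which overlapped too. Without wt medium replicate 4 the median was 0.14, and the change of Oasl1, a 2'-5'-oligoadenylate synthetase-like protein, went from 1.66 to 0.95. The 16 guanylate-binding proteins and immunity-related GTPases, which attack intracellular pathogens, had a median of 0.19, or -0.03 without that array, and none passed the threshold in either direction. The interferon-stimulated response element, searched on both strands as GAAA, any 2 bases and GAAA, stood in 9 of 24 antiviral promoters (37.5%) against 2.98% of all promoters. The 16 genes of type I interferon signalling, Ifnb1 among them, had a median of 0.07, with Ticam2, the Toll-like receptor adaptor TRAM, at 1.18.

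Some genes had been picked for RT-qPCR by the study with these arrays in view, so that they are no independent evidence. Il10, the main anti-inflammatory cytokine, was at 13.51, 14.28 and 14.48 in wt and at 11.59, 12.12, 12.74 and 13.71 in MK2-/- cells with LPS. It was at 7.05, 7.15, 7.68 and 8.40 in wt medium and at 6.29, 6.48, 6.54 and 6.87 in MK2-/- medium. The groups overlapped with LPS and not in medium, and since both differences pointed the same way, the MK2 change of Il10 was only -0.52 ± 0.65. Il4ra, the receptor chain for interleukin-4, was at 14.23, 13.01 and 12.63 in wt and at 11.29, 12.42, 11.83 and 12.16 in MK2-/- cells with LPS, which did not overlap. In medium it was at 9.11, 9.07, 9.15 and 9.82 in wt and at 9.34, 9.13, 9.03 and 9.01 in MK2-/- cells, which overlapped, and the MK2 change was -1.20 ± 0.44 (SE, adjusted p 0.514 in limma). It was -0.32 by the other probe of Il4ra and -0.73 without wt LPS replicate 1, the value then at an unadjusted p of 0.0624 in limma. Nod1, a sensor of bacterial peptidoglycan, resembled Il10, with differences of -0.98 in medium and -1.27 with LPS and a change of -0.29. The complement protease C1ra had a change of -0.72, but 0.17 by its other probe, and its near-identical neighbour C1rb had -1.26. Serpina3f had -0.93, or -2.61 by its other probe, and -1.38 without wt medium replicate 4 (unadjusted p 0.000993 in limma). Il19 had 0.60, or 3.15 by its other probe, and its sign turned without wt medium replicate 4, to -0.14. The change of Hdc was 2.24 and became 1.28 without wt medium replicate 4. The list of the IL-10 family and of other restraining cytokines and receptors had a median of 0.22, or -0.14 without that array. Of its 11 members 2 were negative at an unadjusted p below 0.05. These were Il4ra and Tnfaip8l2 (-1.19), a brake on immune signalling, both from outside the IL-10 family.

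**Figure D4:**
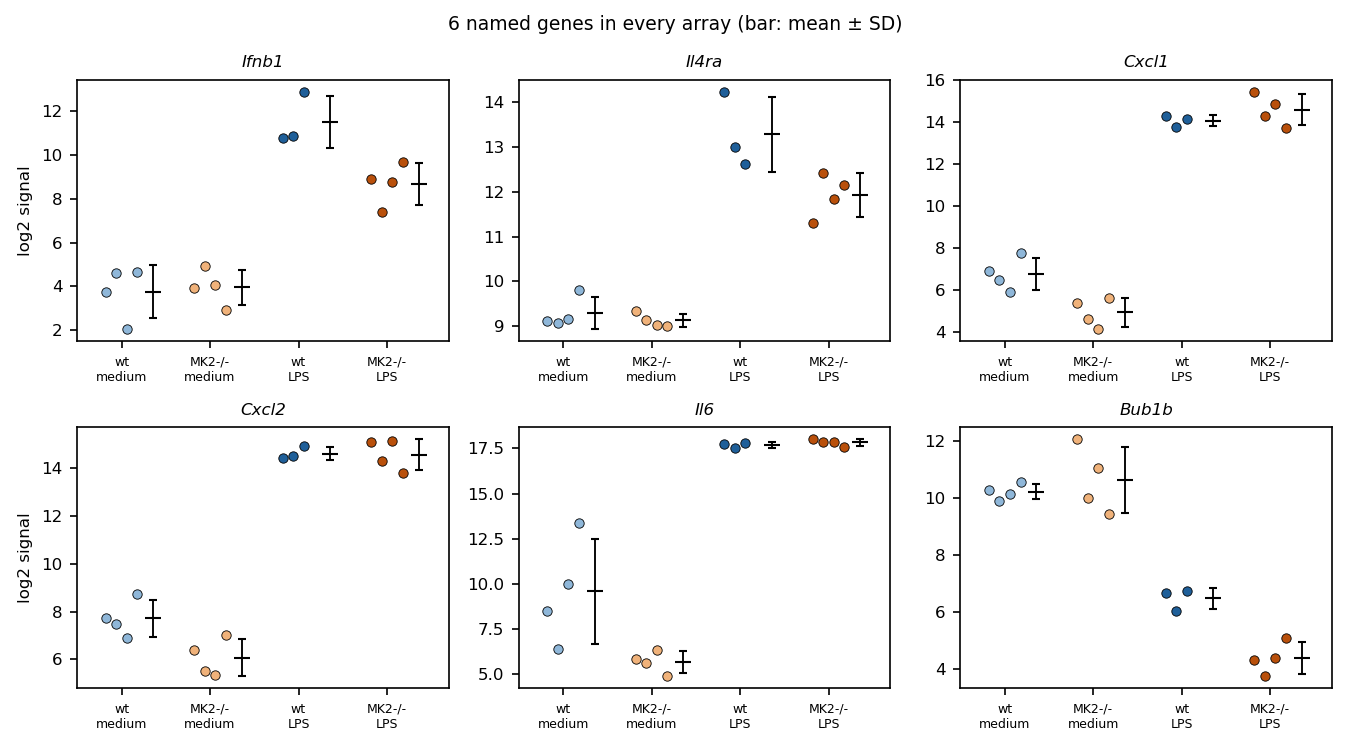
Log2 level of Ifnb1, Il4ra, Cxcl1, Cxcl2, Il6 and Bub1b on each array, with group mean ± SD. Ifnb1, Il4ra and Bub1b differ between genotypes with LPS, where the groups do not overlap, and Cxcl1 and Il6 in medium, where Il6 of wt replicate 4 stands at 13.37.

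Genes of the cell cycle, which LPS lowers in macrophages, had the most negative medians of the lists examined. The 36 mitosis genes had a median of -1.27, with 31 negative, 7 of them at an unadjusted p below 0.05. Their median response was -2.47 in wt and -3.58 in MK2-/- cells. Their mean level with LPS was 8.39, 7.51 and 8.38 in wt and 7.63, 6.44, 7.15 and 6.86 in MK2-/- cells, which overlapped only by MK2-/- replicate 1. In medium it was 10.50, 10.11, 10.09 and 10.74 in wt and 11.75, 9.84, 10.54 and 9.10 in MK2-/- cells, where the MK2-/- arrays spread to both sides of the wt arrays. Leaving out 1 array moved the median of the mitosis list between -1.58 and -0.79, the latter without MK2-/- medium replicate 1. Of all 2232 genes repressed at least 4-fold in MK2/3-/- cells, 433 were negative at that threshold, and the class median was -0.52. The share of mitosis genes at that threshold was thus close to that of strongly repressed genes, and the share of the replication genes below was lower. Bub1b, a kinase of the spindle checkpoint, was at 6.66, 6.04 and 6.72 in wt and at 4.32, 3.73, 4.39 and 5.08 in MK2-/- cells with LPS. These groups did not overlap. In medium it was at 10.29, 9.92, 10.15 and 10.58 in wt and at 12.08, 10.02, 11.07 and 9.43 in MK2-/- cells, which overlapped. Its MK2 change was -2.51 ± 0.75 (SE, adjusted p 0.396 in limma), with 2 of 4 MK2-/- LPS arrays well above background. The kinesins Kif11 and Kif20a had changes of -2.05 and -1.59, the centromeric histone Cenpa of -1.87 and the cytokinesis genes Anln and Racgap1 of -2.85 and -1.51. In the 15 fits without 1 array, Kif11 lost the unadjusted threshold in 6, Kif20a in 10, Cenpa in 9, Anln in 8 and Racgap1 in 9. Bub1b and Nek2 kept it in all. Nek2, a centrosomal kinase, was not well above background in MK2-/- cells with LPS, and its fall was at least 4.44-fold deeper there than in wt cells, or 3.01-fold without wt LPS replicate 1. The positive member at that threshold, Aurkb, is described with the dim genes below.

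The 40 DNA replication and S-phase genes had a median of -0.71, with 33 negative, 5 of them at an unadjusted p below 0.05 and 1 positive. Leaving out 1 array moved the median between -0.92 and -0.42, the latter without MK2-/- LPS replicate 2. Their mean level with LPS was 9.63, 9.49 and 10.04 in wt and 8.73, 8.15, 9.07 and 8.68 in MK2-/- cells. These groups did not overlap. In medium it was 10.93, 10.91, 11.09 and 11.49 in wt and 10.99, 10.14, 11.29 and 10.30 in MK2-/- cells, which did. Tyms, thymidylate synthase, had a change of -1.05, the polymerase subunit Pold1 of -1.15, the helicase subunit Gins1 of -1.37 and Rrm2, a subunit of ribonucleotide reductase, of -2.16. The remaining member, the polymerase subunit Pole2, was not well above background in MK2-/- cells with LPS, and its fall was at least 3.44-fold deeper there, or 2.26-fold without wt LPS replicate 1. In the 15 fits without 1 array, Rrm2 lost the unadjusted threshold in 9, Pole2 in 7, Gins1 in 2 and Pold1 in 1, and Tyms kept it in all. Tyms differed from the others in that it rose with LPS, by 2.86 in wt and by 1.81 in MK2-/- cells. The promoter of Bub1b is shown because the CCAAT box (CCAAT on either strand) stood in 24 of 30 mitosis promoters (80%) and in 21 of 38 replication promoters (55.3%), against 33.8% of all promoters. Its window is chr2:118597961-118598210 (plus strand, GRCm38.p6), with the box in capitals at -113, read on this strand as its complement.
Bub1b: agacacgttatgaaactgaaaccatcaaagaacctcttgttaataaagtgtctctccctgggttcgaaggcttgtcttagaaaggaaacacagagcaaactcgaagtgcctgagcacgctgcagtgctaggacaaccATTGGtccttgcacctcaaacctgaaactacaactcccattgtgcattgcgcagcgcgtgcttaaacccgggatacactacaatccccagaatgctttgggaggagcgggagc

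Among transcription factors of the immediate early type (AP-1, EGR and SRF-linked), 5 of 26 had a positive change at an unadjusted p below 0.05 and none a negative one, with a median of 0.26. Maff, a small MAF protein, was at 8.37, 7.27, 6.88 and 7.57 in wt medium and at 5.66, 5.33, 6.34 and 6.94 in MK2-/- medium. Under LPS it stood at 10.03, 10.31 and 10.16 in wt and at 11.18, 11.08, 10.87 and 10.43 in MK2-/- cells. Every MK2-/- array with LPS lay above every wt one, while 1 pair of medium arrays crossed, and the MK2 change was 2.18 ± 0.47 (SE, adjusted p 0.193 in limma). The response of Jund was -0.66 in wt and 0.20 in MK2-/- cells, a value that did not pass the test, and its change was 0.86. Nr4a2 (1.95), Batf (1.19) and Ier5 (0.81) were the others, and Batf no longer passed without wt medium replicate 4 (0.71). Without 1 array the list median ranged from 0.10, without wt medium replicate 1, to 0.41. Of the 20 feedback inhibitors of Toll-like receptor and cytokine signalling, 3 were positive and 1 was negative. Zc3h12a, the RNA-cleaving regnase-1, had a change of 1.01, Tnfaip3 of 1.11 and Cish of 1.53, while Sbno2, a transcriptional co-regulator downstream of interleukin-10, had -0.85. The median of this list was 0.23, or 0.01 without wt medium replicate 4. Of 15 NF-κB subunits and IκB proteins, Ikbkb, the kinase IKKβ, passed that threshold with a change of 0.55, and the median was 0.17.

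The 20 matrix protease, serpin and urokinase genes tested had a median of 0.40, with 12 positive, 3 of them at an unadjusted p below 0.05 against 1 of 8 negative ones. The median was -0.01 with normexp background correction and 0.18 without wt medium replicate 1. Mmp14, a membrane-bound collagenase, was at 9.33, 8.81, 8.50 and 9.17 in wt medium and at 7.47, 7.62, 7.91 and 8.97 in MK2-/- medium. LPS arrays gave 12.37, 13.13 and 12.74 in wt and at 12.81, 13.38, 13.15 and 13.19 in MK2-/- cells. The groups overlapped at both treatments, and the MK2 change was 1.34 ± 0.42 (SE, adjusted p 0.416 in limma). Mmp13 had 1.90, or 0.98 without wt medium replicate 4. Serpinb2, an inhibitor of urokinase, was not well above background in any MK2-/- medium array, and its response exceeded the wt one by at least 12.3-fold, or 6.36-fold without wt medium replicate 1. Over all alternative settings the MK2 change of Serpinb2 was 1.25 to 4.37, so that the fold is no limit under other processing. Urokinase itself (Plau) had -1.98. Markers of fibroblasts and stromal cells also varied between arrays. With all 8 tested, their mean log2 level was 6.49 to 9.84 in wt medium, 8.62 to 9.47 in wt LPS, 5.57 to 8.27 in MK2-/- medium and 7.14 to 8.68 in MK2-/- LPS, with 1 marker, Pdgfra, not well above background in MK2-/- cells. Their summed linear signal was 3337 to 107586 in wt medium and 1604 to 27145 in MK2-/- medium. Their median MK2 change was -0.26, with none past an unadjusted p below 0.05, and their part in the values of Mmp14, Mmp13, Serpinb2, Plau and Edn1 was not tested. In such bulk samples fewer cells of a type and less RNA per cell cannot be told apart.

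Ranked by p, the genes measured in all groups were led by transcripts outside the inflammatory lists, apart from Maff. Epop, which encodes a partner of elongin BC and Polycomb repressive complex 2, came first among the positive changes. It was at 9.87, 9.65, 9.67 and 9.97 in wt medium and at 9.32, 9.54, 9.70 and 9.42 in MK2-/- medium, which overlapped. With LPS it was at 10.53, 11.46 and 10.87 in wt and at 12.61, 13.08, 12.33 and 13.04 in MK2-/- cells, which did not. Its response was 1.16 in wt and 3.27 in MK2-/- cells, and the MK2 change was 2.11 ± 0.37 (SE, adjusted p 0.0975 in limma). Gpr31b, a G protein-coupled receptor, had the difference in medium, at 5.80, 5.57, 6.82 and 6.58 in wt and at 4.84, 3.87, 4.11 and 3.53 in MK2-/- cells, where 1 of 4 arrays was well above background. LPS raised it to 8.75, 8.67 and 8.46 in wt and at 9.40, 9.25, 8.72 and 8.79 in MK2-/- cells. Its medium groups did not overlap, its LPS groups did, and the change was 2.52 ± 0.44 (SE, adjusted p 0.0975 in limma). Zfp446, a zinc finger protein, followed with 8.47, 8.37, 8.60 and 8.46 in wt medium, 8.86, 8.74 and 8.72 in wt LPS, 8.08, 7.84, 8.33 and 8.33 in MK2-/- medium and 9.26, 9.83, 9.93 and 10.25 in MK2-/- LPS. Its genotypes did not overlap at either treatment, and its change was 1.37 by this probe and -0.29 by its other one. The remaining 8 of the 12 were Trim36 (1.51), Inava (2.00), Tmco6 (1.13), Pitrm1 (1.35), Tspan3 (1.43), Grin3b (1.39), Tmem39a (1.39) and Abracl (0.78).

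The negative end of the ranking held mostly genes whose fall with LPS was deeper in MK2-/- cells. Rpusd3, a pseudouridine synthase of mitochondria, was at 10.05, 9.54, 9.97 and 9.88 in wt medium and at 9.03, 9.11, 9.35 and 8.90 in MK2-/- medium. With LPS it was at 8.55, 7.25 and 7.74 in wt and at 5.01, 4.64, 5.26 and 5.25 in MK2-/- cells. The genotypes did not overlap at either treatment, the response was -2.01 in wt and -4.06 in MK2-/- cells, and the MK2 change was -2.05 ± 0.37 (SE, adjusted p 0.115 in limma), with -0.78 by its other probe. Thap3, a THAP domain protein, was at 8.05, 7.49 and 7.30 in wt and at 6.06, 6.47, 6.91 and 6.24 in MK2-/- cells with LPS, and at 9.15, 9.28, 9.35 and 9.36 in wt and at 9.75, 10.16, 9.48 and 9.86 in MK2-/- cells in medium. Its groups did not overlap at either treatment but differed in opposite directions, and the change was -1.72. Dcaf4, a substrate receptor of a ubiquitin ligase, was at 7.96, 7.24 and 7.38 in wt and at 6.06, 6.66, 5.76 and 5.63 in MK2-/- cells with LPS, and at 9.21, 9.13, 9.36 and 9.40 in wt and at 9.59, 9.33, 9.61 and 9.18 in MK2-/- cells in medium. It differed with LPS, where its groups did not overlap, and its change was -1.65. Further down the ranking stood Ttc5 (-1.62, though 0.23 by its other probe), Ggct (-1.72), Hagh (-1.95), Baiap2l2 (-1.18), Zc4h2 (-1.20), Iqce (-1.45), Pomt1 (-1.29) and Ccdc66 (-1.18). Of these Ggct, the enzyme γ-glutamylcyclotransferase, rose with LPS, by 2.67 in wt and by 0.95 in MK2-/- cells. Baiap2l2 rose in wt cells, by 0.78, and had a response of -0.40 in MK2-/- cells that did not pass the test.

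**Figure D5:**
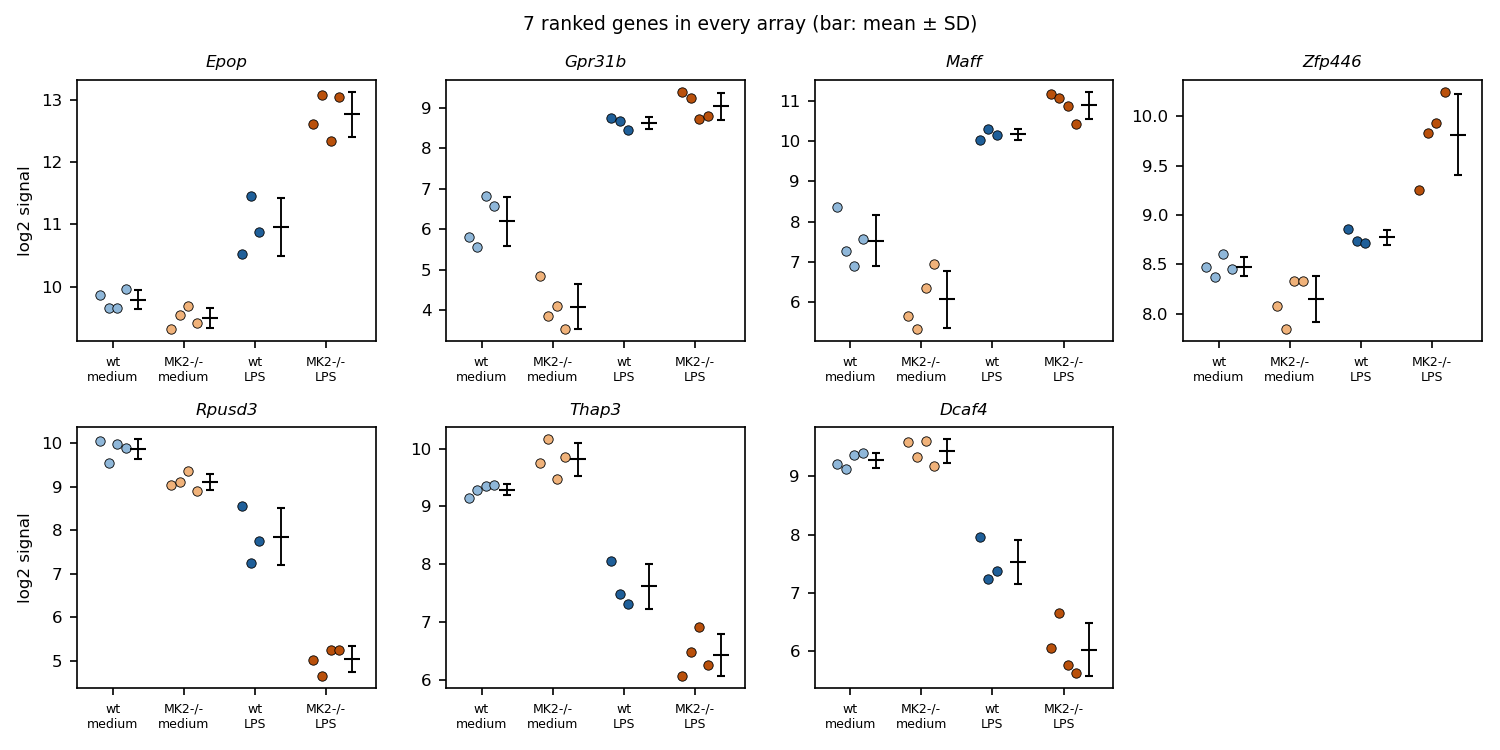
Log2 level on each array, with group mean ± SD, of genes ranked high by p for a positive MK2 change (Epop, Gpr31b, Maff, Zfp446) and for a negative one (Rpusd3, Thap3, Dcaf4). In all of them except Gpr31b, which differs in medium, the genotypes do not overlap with LPS.

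Some genes with low p had a group in which no array was well above background. U90926, a transcript induced by LPS, was at 6.66, 5.56, 6.72 and 8.83 in wt medium and not well above background in MK2-/- medium, with 13.07, 12.39 and 11.45 in wt LPS and 13.59, 13.63, 12.65 and 11.57 in MK2-/- LPS. Its response in MK2-/- cells exceeded that in wt cells by at least 16.2-fold, or 10.5-fold without wt medium replicate 4. Pms1, a mismatch repair protein, was at 6.43, 4.78 and 5.73 in wt LPS and not well above background in MK2-/- LPS, after medium levels of 8.20 to 8.68 in wt and 6.81 to 8.50 in MK2-/- cells. Its fall with LPS was at least 4.24-fold deeper in MK2-/- cells. The corresponding bounds were 2.39-fold for Fam117a and 2.07-fold for Lpin1, whose other probe had no difference (0.00) and whose bound was 1.38-fold without wt LPS replicate 1. Mettl11b did not fall in wt cells. It was not well above background in wt medium or MK2-/- LPS and was so on 1 of 3 wt LPS and 1 of 4 MK2-/- medium arrays, and the wt response exceeded the MK2-/- one by at least 2.52-fold. Over all alternative settings the MK2 change was 2.04 to 5.83 for U90926 and -3.11 to -0.34 for Pms1. It was -2.25 to -0.07 for Fam117a and -2.93 to -0.44 for Mettl11b. In each case the smallest size lay below the fold given here. Aurkb, a mitotic kinase, was at 5.78, 4.79, 5.40 and 6.12 in wt medium and not well above background in the 3 other groups. The same held for the cyclin Ccne2 and for the Polycomb protein Cbx7, measured in wt medium on 2 and 1 of 4 arrays. As neither treatment of MK2-/- cells was measured for Aurkb, Ccne2 and Cbx7, no size of the MK2 change is given for them.

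Lists of general cell functions lay near the median of all genes. The 76 cytosolic ribosomal proteins had a median of -0.03, with none positive and 2 negative at an unadjusted p below 0.05, and the 73 respiratory chain subunits of -0.08, with 1 in each direction. The 30 lysosomal enzymes had a median of 0.00 and none past that threshold. The 40 nuclear pore and spliceosome genes had a median of -0.12 and 5 negative members, among them Nup188 (-0.53) and Nup43 (-1.09).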

How the data were processed

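RNA of each culture was labelled with Cy3 and hybridised to its own Agilent 1-colour mouse array, and the study's methods describe 4 independent experiments. The deposited scanner files give spot intensity after the background correction of Agilent Feature Extraction 11.0.1.1. A second deposited file, used as an alternative, holds log2 values that had been quantile normalised and centred on the samples' median. The sources used here name no annotation build beyond the scanner files' own.

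Here log2 processed signals were quantile normalised over all 22 arrays (R 4.3.3, limma 3.58.1). Control spots and flagged spots were removed. Of the probes with an NCBI accession, 28054 cleared the background on 3 or more arrays, and the brightest probe of each gene was used, for 22347 genes, 18355 of them with a RefSeq symbol. A mean was fitted for each of the 6 groups on all 22 arrays, with eBayes, and p-values were adjusted over all genes (Benjamini-Hochberg). A probe not above background in a group was bounded at the lowest signal well above background on each array. The folds written as at least are bounds against this floor in the main processing only. The steps were tested on simulated data. No saturated spot was found. The precision is limited by 3 or 4 arrays per group.

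The members and gene lists were chosen with earlier results of these data known, and lists are described by counts and medians without a test. Named genes were the 12 with the smallest p in each direction that kept their sign in the 15 fits without 1 array, the 4 such genes in each direction with a dim group, 2 members per list by p and the most responsive member, Mapkapk2, Mapkapk3, the RT-qPCR genes and genes called under an alternative. Other list members at an unadjusted p below 0.05 were named after their values were seen. Some genes that the rule names are not reported here. Arrays of the same replicate number shared deviations (r over 0.1) in 2 of 3 wt and 2 of 4 MK2-/- pairs. Arrays of the same letter did so in 2 of 3 and 2 of 4 pairs as well, and arrays of different letters in 1 of 9 wt and 2 of 12 MK2-/- pairs. Alternatives were other scalings, background corrections, probes, filters, blocks, array weights, the centred log2 file and leaving out arrays. Promoters come from RefSeq (GRCm38.p6), and genes of the lists were matched by symbol.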

Additional observations from a re-analysis of the deposited data

Results flagged for a closer look

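Values of single arrays that stood far from the rest of their group are listed here. Dixon's ratio was above its critical value for 13 of 176 groups of 4 arrays over 59 genes and for 10 of 150 mean levels of gene lists, and chance alone flags about 1 in 20 such groups.

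Wt medium replicate 4 lay above the other wt medium arrays in Il4ra (9.82, others 9.07 to 9.15), Tnfsf15 (8.49, others 6.72 to 6.99), Oasl1 (14.2, others 11.1 to 11.6), Rps18 (16.3, others 15.9) and in the mean of the feedback inhibitors (10.8, others 9.95 to 10.0). In wt medium replicate 3, Xist was at 3.57 against 1.99 to 2.25, and it was not well above background on any wt medium array.

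With LPS, MK2-/- replicate 1 was low in Slc7a2, an arginine transporter (12.1, others 13.1 to 13.2). MK2-/- LPS replicate 2 was low in Dusp4 (8.88, others 9.53 to 9.63) and, at levels not above background, high in Pms1 (3.23). MK2-/- LPS replicate 3, with 2927 flagged spots and Y-linked transcripts at a mean of 2.07 (others 7.57 to 8.09), was low in the mean of type I interferon signalling (11.8, others 12.2 to 12.3), of the guanylate-binding proteins (13.2, others 13.7 to 13.8) and of the feedback inhibitors (12.2, others 12.6 to 12.7), and high in Fam117a (2.60), again not above background. MK2-/- LPS replicate 4 was low in the mean of the CXC chemokines (10.2, others 11.1 to 11.2) and of glycolysis (13.7, others 14.2 to 14.3), and high in B cell markers (5.05, others 4.49 to 4.57).

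In medium, MK2-/- replicate 1 was high in Ccl22 (4.11) and replicate 3 in Aurkb (2.49), both not well above background. MK2-/- medium replicate 2 was high in Cxcl9 (6.86, others 4.64 to 4.98) and Tlr9 (12.2, others 11.3), and low in Zc3h12a (6.40, others 7.60 to 7.83). The mean of the list of the IL-10 family and other restraining cytokines and receptors was low in MK2-/- medium replicate 3 (8.86, others 9.35 to 9.43).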

How the results depend on the processing

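No gene was called for the MK2 change in limma, but 8 were with quantile normalisation over the 15 arrays alone, 8 when only these were fitted, 96 with array weights and 1 (Pou4f1) without the 2 arrays lacking Y-linked signal. Leaving out 1 array gave 0 to 4 calls. They were Lyve1, AK220451, Pcdhac2 and BC021366 without wt LPS replicate 1, 3 including Epop and Rpusd3 without wt LPS replicate 2, Cbx7 without wt medium replicate 1, and Ggct and Mdm1 without MK2-/- medium replicate 2. Replicate numbers did not meet the rule for pairing (r over 0.1 in every pair), nor did the letters, although arrays of the same letter had the same age label. A block on the number gave 0 calls, a block on the replicate letter 4 (Epop, Cbx7, Gpr31b and BC021366), and the letter as a fixed replicate block 1. Fitting all 55681 non-control probes counts probes in place of genes. Positive changes at an unadjusted p below 0.05 then numbered 1259 probes. They numbered 1544 genes with array weights and 406 to 853 genes without 1 array, the highest without wt LPS replicate 1. Negative ones numbered 2267 probes with all probes, 2077 genes with array weights and 883 to 1185 genes without 1 array. Of the 55681 probes 16187 responded in wt and 16613 in MK2-/- cells. The median of the genes repressed at least 4-fold was -0.29 with 75th percentile scaling and -0.26 with normexp. The causes were not tested.

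Of 138 named genes, 124 kept their sign in every alternative that held a value for them. Some of them, such as Ifnb1 and Cxcl1, had a value in 29 of the 30 alternatives. Ranges given over all alternative settings likewise cover the settings with a value. The fits without 1 array make up 15 of the 30. For the ranked and dim genes their sign was fixed in advance, since the choice required it. By the probe with the highest wt induction, Ttc5 was at 0.23, Lpin1 at 0.00069, Pfkfb3 at -0.0512 and Rpl24 at -0.0202. Zfp36 was at -0.30 with 75th percentile scaling, -0.0602 with normexp, -0.37 with array weights and -0.0888 with the letter fixed. Nup98 was at -0.22 (75th percentile) and -0.0924 (weights), Il19 at -0.0416 (75th percentile), Mdm1 at 0.0391 (normexp), and Tlr3 at 0.0173 (authors' table) and 0.0422 (without low Y-linked signal). Without 1 array the ranges that crossed 0 were -0.57 to 0.12 for Mapkapk2, -0.14 to 1.07 for Il19, -0.0531 to 1.15 for Gbp5, -0.0461 to 1.96 for Saa3, -0.0316 to 1.19 for Socs3, -0.17 to 0.43 for Pfkfb3, -0.51 to 0.16 for Tlr3, -0.76 to 0.0890 for Tpx2, -0.31 to 0.24 for Zfp36 and -0.15 to 0.18 for Nup98.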

Other observations

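Genes of antigen presentation by MHC class II had a median MK2 change of 0.50 with 14 of 15 positive, of which only Cd40, a co-stimulatory receptor, had an unadjusted p below 0.05 (1.99, or 1.16 without wt medium replicate 4). The list median was 0.17 without wt medium replicate 2, on which the mean level of the list was 11.99, against 10.47 to 11.04 on the other wt medium arrays. Their median response was -0.68 in wt and -0.05 in MK2-/- cells, and H2-Ob was at 8.22, 7.87 and 7.90 in wt and at 9.79, 9.04, 8.93 and 8.93 in MK2-/- cells with LPS. In medium H2-Ob was at 7.65, 8.03, 8.02 and 7.80 in wt and at 9.14, 8.20, 8.17 and 7.99 in MK2-/- cells, which overlapped, and its MK2 change was 0.68 at an unadjusted p of 0.175 in limma. MHC class I genes had a median of -0.12. Of 23 chemokine and growth factor receptors 3 were positive and none negative, namely Fpr2, a formyl peptide receptor (1.96), Ccr7, which guides cells to lymph nodes (1.86), and Adora2a, an adenosine receptor (1.22). None of the 23 passed that threshold without wt medium replicate 4, where these had 1.23, 1.46 and 0.79.

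Heat shock proteins had a median of 0.37 (0.16 without MK2-/- LPS replicate 2), with Hsp90aa1 at 0.91 and Hspa1a at 2.29 ± 1.14 (SE). Integrated stress response genes had a median of 0.36 (0.11 without wt medium replicate 1). The cholesterol list had a median of 0.03. The glycolysis list had a median of 0.06 with values in both directions. The glucose transporter Slc2a3 had -2.0 ± 0.51 (SE), at 6.33, 7.01 and 7.84 in wt and at 5.10, 5.31, 4.29 and 5.04 in MK2-/- cells with LPS, while Slc2a1 had 0.90 and Hif1a, a hypoxia-inducible factor, 0.76. C/EBP factors and acute-phase genes had a median of -0.35 and prostaglandin and leukotriene genes of -0.33, the latter despite Ptgs2 and Pla2g4a, a phospholipase (0.79).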
